A study of Homo sapiens with 9 samples.

Results

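Amino acid transporter mRNAs were followed in RNA that co-purified with CNOT7 and in the input RNA of the same human cell line. The genes were the protein-coding members of the solute carrier families SLC1, SLC3, SLC6, SLC7, SLC36, SLC38 and SLC43, chosen by their symbols alone. They were 49 of the 30956 genes in the deposited table, and 1 further SLC7 gene was not analysed here. HEK293T, derived from human embryonic kidney, was grown in DMEM with serum. RNA labelled as cytoplasmic was depleted of ribosomal RNA and sequenced. In RNA immunoprecipitation sequencing (RIP-seq), RNA recovered with a tagged protein is set against input RNA. Here 3 RIP libraries came with V5-tagged CNOT7 carrying the substitution D40A, which impairs its nuclease activity. Of the 6 input libraries, 3 came from cultures treated for 24 h with 3 µg/mL doxycycline and 3 from untreated cultures. The labels do not say whether the cells of the RIP libraries had doxycycline.

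Cells take up, exchange and release amino acids through most of these carriers, while 5 are known to carry other substrates, such as creatine or serotonin. SLC1, SLC6 and SLC38 proteins mostly couple transport to sodium, SLC36 proteins to protons, and SLC43 proteins to no ion. SLC7 proteins carry cationic amino acids on their own or work as light chains bound to an SLC3 heavy chain, which brings the pair to the plasma membrane. Several of the genes are transcribed through ATF4, the factor made when amino acids run short, and the amino acids they bring in feed the kinase complex mTORC1. CNOT7 is a nuclease of CCR4-NOT, which removes poly(A) tails and thereby starts the decay of many mRNAs.

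The table gave a normalized count per gene for the 3 RIP libraries and for 3 input columns, which are counts divided by a size factor per library. The column names do not say whether these inputs had doxycycline. For the remaining 3 inputs only a mean could be derived, from the deposited mean over 9 libraries, so it has no SD. Reads in genes numbered 37140622 to 40764899 in RIP and 37290120 to 38918356 in the input columns, so that 3 reads, the floor used here, stood for 2.24 to 2.48 and 3.13 to 3.49 normalized counts. All 9 of 9 markers fixed for HEK293-type cells averaged over 100 normalized counts in the input columns. Their summed level was 24228 to 25128 in RIP and 45499 to 48251 in input, with VIM as its largest part, while PAX2 and EYA1 averaged 1208 and 3194 in RIP against 627 and 1420 in input. Of the markers of other cell types, LYZ of blood cells, DCN of fibroblasts and ALB of hepatocytes were at 0 or nearly so, with at most 10.8 in a library, whereas the fibroblast collagen COL1A1 had 322 to 535 in RIP and 375 to 545 in input. Among the RIP libraries, RIP2 stood apart at low counts: 15 of the 49 transporters had no read in it, against 3 in RIP1 and 7 in RIP3. In Input1, Input2 and Input3, 11, 12 and 9 had no read. Mitochondrially encoded genes took 0.931% to 1.12% of reads in RIP and 18.6% to 26.6% in input, which bears on any scaling by totals. No immunoprecipitate without the tagged protein was analysed here. The labels do not state that replicates were grown separately, and p-values here measure only the spread between libraries, which may be technical.

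As a group the transporter mRNAs stood close to their input level, with few large differences in either direction. Of the 36 that averaged at least 10 normalized counts over the 6 columns and were tested, 2 were higher in RIP, SLC38A2 and SLC36A1. Another 8 were lower: SLC1A3, SLC1A4, SLC7A6, SLC36A4, SLC38A3, SLC38A6, SLC38A10 and SLC43A1. A call means an adjusted p under 0.05 in limma's test on log2(normalized count + 1), fitted and Benjamini-Hochberg adjusted over all 16765 genes tested. Among those, 22.4% were called higher in RIP and 21.2% lower, so the share of transporters called lower, 22.2%, was near the background and the share called higher, 5.56%, was below it, a difference that was not tested. Differences of at least 2-fold in fitted value were seen in 6 of the 36 tested transporters (16.7%), against 37.8% of all genes tested. The share was 33.3% for protein-coding genes, 32.5% for SLC25 mitochondrial carriers and 19.3% for other solute carriers, close to that of the transporters. Among the 29 transporters that averaged at least 100 normalized counts, 2 had such a difference, and the others of the 6 rest on few reads. Of the 10 called transporters, only 2 reached that size, SLC36A4 and SLC38A6. The median log2 fold of RIP over input was -0.20 for the transporters and -0.04 for all genes tested.

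Counts without a model gave the same picture. Every RIP library lay above every input column for 5 of the 36 tested transporters, against 27.4% of all genes tested. Every RIP library lay below every input column for 10 of 36, against 27.3% of all genes tested. In the authors' deposited table, 2 transporters were higher in RIP at an adjusted p under 0.05 and 11 lower of the 39 with a value, against 20.6% higher and 19.9% lower of all genes in the authors' deposited table with a value. The direction of the whole group depended on the scaling: with equal totals over all genes, every fold moved up by about 0.48 on the log2 scale, and the calls became 11 higher and 1 lower by limma. That 1 was SLC36A4. With equal totals over nuclear protein-coding genes, SLC1A4, SLC7A6 and SLC43A1 were no longer called and SLC7A1 was called higher (log2 fold 0.31, limma adjusted p = 0.0435). Among other solute carriers, 45 SLC25 genes, the carriers of the mitochondrial inner membrane, gave 10 higher and 11 lower of 40 tested, and 221 further solute carriers gave 25 higher and 29 lower of 166 tested. These are calls by limma, which gave 22.4% higher and 21.2% lower of all genes tested. Whether the shares of these carriers differ from that of the transporters was not tested.

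The summed normalized count of the 49 transporters was 139498, 139140 and 138175 in RIP, against 133827, 139172 and 138186 in the input columns. The groups overlapped, and their means were 138937 ± 684 in RIP and 137062 ± 2844 in input (SD, n = 3 each). As a share of all normalized counts the transporters made up 0.454%, 0.458% and 0.461% in RIP, against 0.329%, 0.327% and 0.305% in input. The share was higher in every RIP library, beside the lower share of mitochondrial reads there, whose part in this was not tested. The input is bulk RNA, in which fewer cells with a transcript and less of it per cell cannot be told apart.

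**Figure D1:**
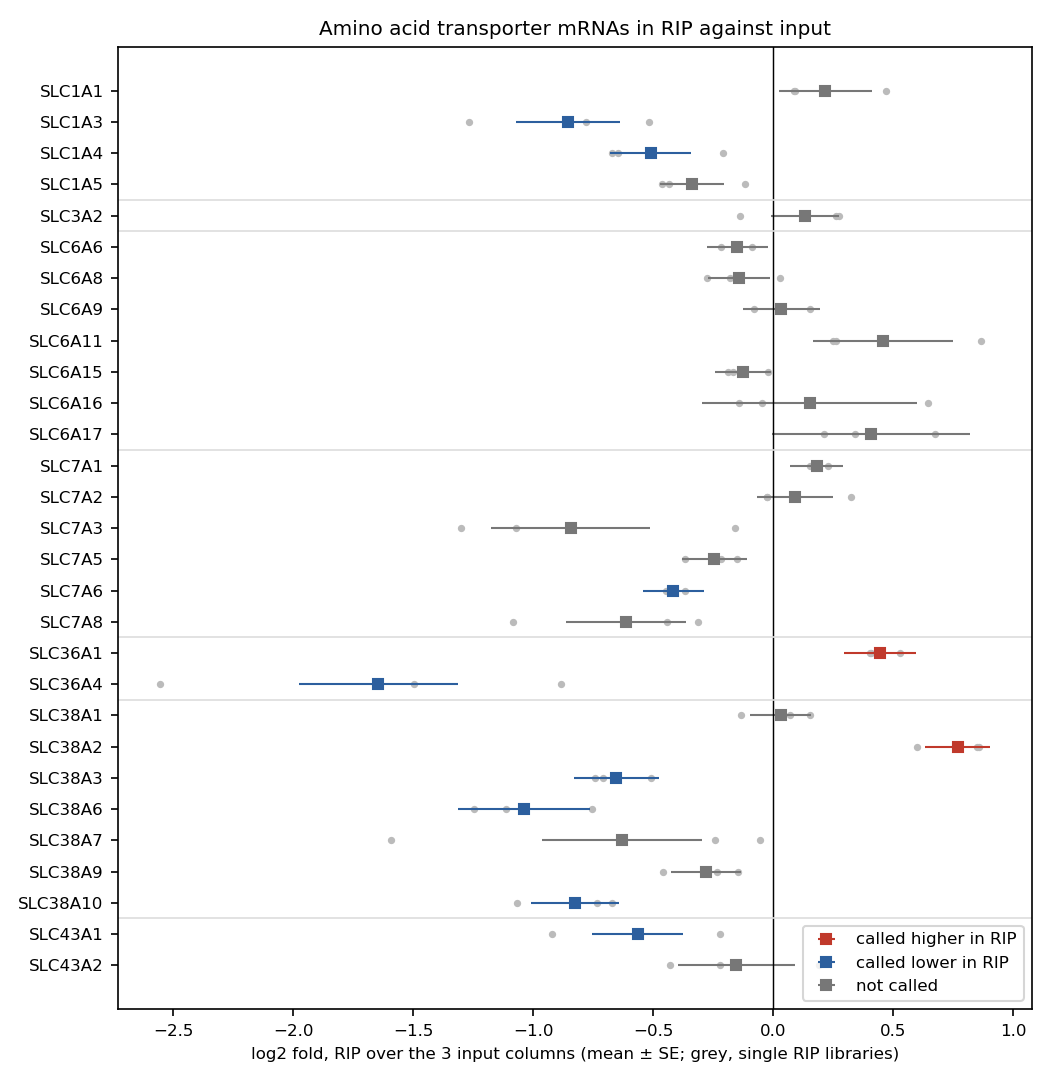
Log2 fold of RIP over the 3 input columns (x axis) for the 29 transporters that averaged at least 100 normalized counts, grouped by family. Squares with lines are limma's fold ± SE, small grey points are single RIP libraries against the mean of the input columns, red marks genes called higher in RIP, blue genes called lower and grey genes not called. SLC38A2 at 0.77 and SLC36A1 at 0.45 are the only red squares, and SLC36A4 at -1.65 lies farthest to the left.

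Among the sodium-coupled neutral amino acid transporters of family SLC38, 1 of 8 tested was higher in RIP and 3 were lower, against 22.4% and 21.2% of all genes tested. SLC38A2 (ENSG00000134294, chromosome 12, 46358188 to 46372773, GRCh38.p14), the System A carrier of alanine, serine and glutamine that cells induce when starved of amino acids, was the strongest call upward. It had 26585, 26481 and 22275 normalized counts in RIP, against 17049, 14649 and 12721 in input. Every RIP library was above every input column. The log2 fold was 0.77 (SE 0.137, adjusted p = 0.000648 by limma), and the call was kept under 14 of 14 alternatives of scaling, filter, tool, block and left-out library. The fold was under 2 and did not pass a requirement of that size.

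SLC38A1, the related System A carrier encoded on the same chromosome (46183063 to 46269043), did not share this difference. It had 24862, 23447 and 20347 normalized counts in RIP, against 24401, 22568 and 20246 in input. The ranges overlapped almost fully, and the log2 fold was 0.03 with a 95% interval of -0.25 to 0.31 (limma adjusted p = 0.87). The ratio of SLC38A2 to SLC38A1 counts within a library was 1.07, 1.13 and 1.09 in RIP, against 0.699, 0.649 and 0.628 in the input columns. This ratio needs no scaling between libraries, and its groups did not overlap. The pair was chosen after the values were seen, so the ratio carries no test.

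The 3 SLC38 genes called lower were SLC38A6, SLC38A10 and SLC38A3. SLC38A6, a brain-enriched member whose substrates are less well defined, had 235, 302 and 214 normalized counts in RIP, against 399, 620 and 536 in input. Its log2 fold was -1.04 (SE 0.276, adjusted p = 0.00879 by limma). SLC38A10, a widely expressed member, had 580, 762 and 729 in RIP, against 1077, 1224 and 1360 in input. All RIP libraries of both genes lay below all input columns, and for SLC38A10 the log2 fold was -0.82 (SE 0.183, adjusted p = 0.00287 by limma). SLC38A3, the System N glutamine carrier of liver and kidney, had 606, 591 and 696 in RIP, against 912, 1087 and 980 in input. Its RIP values were again all below its input values, with a log2 fold of -0.65 (SE 0.178, adjusted p = 0.0102 by limma). Without the input column Input2 the limma adjusted p of SLC38A3 was 0.0555, within a range of 0.00624 to 0.517 over limma's 12 alternative settings.

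SLC38A9, the lysosomal arginine sensor that acts upstream of mTORC1, had 1177, 1377 and 1464 normalized counts in RIP, against 1616, 1585 and 1659 in input. All RIP values were below all input values, but the log2 fold of -0.28 did not pass (SE 0.146, limma adjusted p = 0.145). SLC38A7, a lysosomal carrier of glutamine and asparagine, had 813, 319 and 926 in RIP, against 851, 941 and 1116 in input. RIP2 was far below the other RIP libraries, and the log2 fold was -0.63 (SE 0.335, limma adjusted p = 0.153), or -0.15 without RIP2. SLC38A4, a System A carrier of the liver, had 48.9, 2.24 and 25.1 in RIP, against 32.4, 33.1 and 23.3 in input, with RIP2 at the floor.

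The proton-coupled family SLC36 held 2 tested genes, which were called in opposite directions, where 22.4% of all genes tested were higher and 21.2% lower. SLC36A1 (ENSG00000123643, chromosome 5, 151344596 to 151556085), a proton-driven exporter of small amino acids from lysosomes, had 1772, 1769 and 1931 normalized counts in RIP, against 1160, 1520 and 1359 in input. Every RIP library was above every input column, and the log2 fold was 0.45 (SE 0.150, adjusted p = 0.0298 by limma). This call was lost without RIP3 (limma adjusted p = 0.0839), without Input1 (0.12) or without Input3 (0.0643), in a range of 0.000222 to 0.12 over limma's 12 settings. SLC36A4 (ENSG00000180773, chromosome 11, 93144174 to 93197991), a high-affinity carrier of proline and tryptophan, had 1039, 326 and 680 in RIP, against 2307, 1907 and 1608 in input. Every RIP library was below every input column, and RIP2 was the lowest. The log2 fold was -1.65 (SE 0.332, adjusted p = 0.00156 by limma), and -1.19 without RIP2, where limma still called it. SLC36A4 kept its call under 14 of 14 settings and was the only transporter that limma still called lower with equal totals over all genes. Other transporters kept negative folds there without a call, such as SLC38A6 at -0.55 and SLC1A3 at -0.36. The ratio of SLC36A1 to SLC36A4 within a library was 1.71, 5.43 and 2.84 in RIP, against 0.503, 0.797 and 0.845 in input, again with no test since the pair was chosen after its values were seen.

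**Figure D2:**
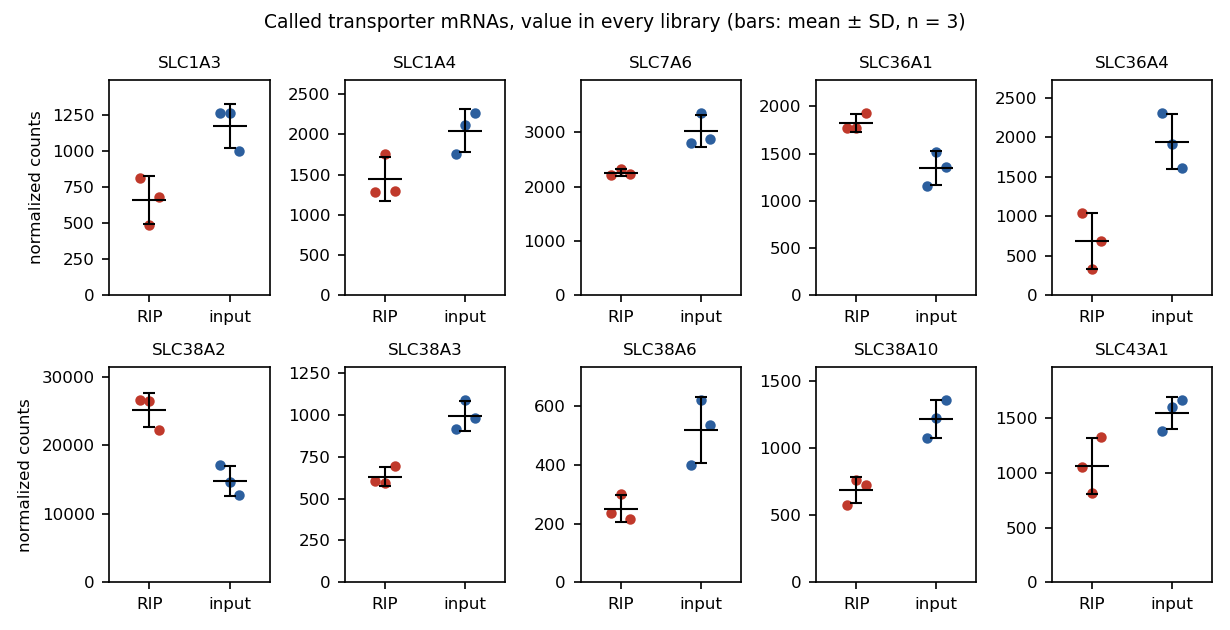
Normalized counts (y axis, each panel with its own scale from 0) of the 10 called transporters in the 3 RIP libraries (red) and the 3 input columns (blue), with bars for the mean ± SD. The RIP and input points are apart in 9 panels, and in SLC1A4 the highest RIP library, at 1759, reaches the lowest input column, at 1756.

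Family SLC1 joins the glutamate carriers of neurons and glia with 2 carriers of small neutral amino acids. In it, 2 of 6 tested genes were lower in RIP, against 21.2% of all genes tested. None was called higher by limma, against 22.4%, with 0 higher also at an unadjusted p under 0.05 and by edgeR. SLC1A3, the glial glutamate transporter EAAT1, had 815, 484 and 680 normalized counts in RIP, against 1266, 1262 and 999 in input. The groups did not overlap, and the log2 fold was -0.86 (SE 0.216, adjusted p = 0.00655 by limma). SLC1A4, the alanine, serine and cysteine exchanger ASCT1, had 1279, 1759 and 1299 in RIP, against 1756, 2121 and 2270 in input. The groups met at RIP2, and the log2 fold was -0.51 (SE 0.168, adjusted p = 0.0272 by limma). Leaving out RIP1, RIP3, Input2 or Input3 ended the call of SLC1A4, with limma adjusted p-values of 0.0718, 0.0719, 0.0995 and 0.105, in a range of 0.00607 to 0.945 over limma's 12 settings.

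SLC1A5, the glutamine exchanger ASCT2 of proliferating cells, missed the threshold. It had 9061, 8880 and 11286 normalized counts in RIP, against 10822, 12815 and 13280 in input, and RIP3 lay above the lowest input column. The log2 fold was -0.34 (SE 0.133, limma adjusted p = 0.0564), while the authors' deposited table gave -0.34 with an adjusted p of 0.0202. SLC1A1, the neuronal and epithelial glutamate transporter EAAT3, had 869, 1132 and 870 in RIP, against 957, 692 and 824 in input. Its groups overlapped, and the log2 fold was 0.22 (SE 0.193, limma adjusted p = 0.398). SLC1A2, the main glutamate transporter of astrocytes, had 77.0, 0.745 and 58.0 in RIP, against 96.0, 74.2 and 11.6 in input, a spread too wide for a comparison. SLC1A6, the glutamate transporter of Purkinje cells, passed the filter on level through 1 library only, with 0.828, 61.8 and 6.27 in RIP, against 0, 2.28 and 0 in input.

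SLC3A2, the heavy chain 4F2hc that pairs with SLC7 light chains, was not called. It had 3449, 4555 and 4583 normalized counts in RIP, against 3423, 3895 and 4103 in input. The groups overlapped, and the log2 fold was 0.13 with a 95% interval of -0.18 to 0.44 (limma adjusted p = 0.484). Its chief light chain SLC7A5, the leucine importer LAT1, had 16083, 17828 and 18675 in RIP, against 17846, 20713 and 24140 in input. These ranges overlapped too, with a log2 fold of -0.25 (95% interval -0.54 to 0.05, limma adjusted p = 0.164). The ratio of SLC3A2 to SLC7A5 within a library was 0.214, 0.255 and 0.245 in RIP, against 0.192, 0.188 and 0.170 in the input columns. These groups did not overlap, but the pair was chosen after its values were seen. In the remaining inputs the ratio of the derived means was 0.291, above every RIP library, so the direction depended on the inputs used. SLC7A5 has partial pseudogene copies, and the treatment of reads shared with them is not stated.

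Among the other light chains, SLC7A6, the y+LAT2 exchanger of cationic for neutral amino acids, was lower. It had 2208, 2333 and 2227 normalized counts in RIP, against 2813, 3362 and 2888 in input, with no overlap. The log2 fold was -0.42 (SE 0.127, adjusted p = 0.0182 by limma), and without Input2 the limma adjusted p was 0.112, in a range of 0.00593 to 0.68 over limma's 12 settings. SLC7A8, the LAT2 light chain of kidney and gut, had 525, 337 and 574 in RIP, against 589, 835 and 742 in input. All its RIP values were below its input values, but the log2 fold of -0.61 missed the threshold (SE 0.251, limma adjusted p = 0.067), while the authors' deposited table gave -0.59 with an adjusted p of 0.0411. SLC7A7, the y+LAT1 light chain mutated in lysinuric protein intolerance, had 24.8, 0 and 7.84 in RIP, against 29.2, 49.1 and 25.6 in input. All 3 RIP values were lower, at levels of few reads, and the log2 fold of -2.49 had an SE of 1.37 (limma adjusted p = 0.168).

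None of the 3 tested cationic amino acid transporters was called by limma, with 0 higher and 1 lower at an unadjusted p under 0.05 and 0 by edgeR. The limma shares over all genes tested were 22.4% higher and 21.2% lower. SLC7A1, the System y+ carrier CAT1 of arginine and lysine, had 24236, 24103 and 25413 normalized counts in RIP, against 20431, 22175 and 22510 in input. Every RIP library was above every input column, yet the log2 fold of 0.18 did not pass (95% interval -0.06 to 0.42, limma adjusted p = 0.218). SLC7A2, the inducible CAT2, had 4964, 3898 and 3898 in RIP, against 4443, 4458 and 3160 in input, with overlap and a log2 fold of 0.09 (SE 0.160, limma adjusted p = 0.684). SLC7A3, the neuronal CAT3, had 171, 378 and 200 in RIP, against 375, 402 and 499 in input. RIP2 alone reached the input range, and the log2 fold was -0.85 (SE 0.332, limma adjusted p = 0.0577). Without RIP2 the log2 fold of SLC7A3 was -1.19 with a limma adjusted p of 0.00166, in a range of 0.00166 to 0.412 over limma's 12 settings, and the authors' deposited table gave -0.77 with an adjusted p of 0.0241.

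The sodium- and chloride-dependent family SLC6 supplied 10 tested genes, and limma called 0 of them, with 0 also at an unadjusted p under 0.05 and 0 by edgeR. Over all genes tested, limma called 22.4% higher and 21.2% lower. SLC6A8, the creatine transporter, had 5333, 5697 and 6582 normalized counts in RIP, against 5769, 6446 and 7255 in input. SLC6A15, a carrier of branched-chain amino acids and proline, had 6375, 5672 and 5762 in RIP, against 7082, 6405 and 5977 in input. SLC6A6, the taurine transporter, had 2372, 2285 and 2170 in RIP, against 2275, 2719 and 2595 in input. All 3 genes overlapped between groups, and their log2 folds lay between -0.15 and -0.13, negative with the deposited scaling and positive for SLC6A6 (0.34), SLC6A8 (0.35) and SLC6A15 (0.37) with equal totals over all genes. SLC6A8 has a near-identical pseudogene copy, so its reads may be split or shared.

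SLC6A9, the glycine transporter GlyT1, had 1570, 1691 and 1850 normalized counts in RIP, against 1437, 1580 and 2021 in input. The RIP values lay inside the input range, with a log2 fold of 0.03 (95% interval -0.32 to 0.38, limma adjusted p = 0.888). SLC6A11, the GABA transporter GAT3, had 335, 508 and 332 in RIP, against 349, 265 and 235 in input. SLC6A17, a vesicular carrier of neutral amino acids, had 126, 138 and 174 in RIP, against 87.7, 120 and 122 in input. SLC6A17 lay higher in every RIP library and SLC6A11 overlapped, and neither passed (limma adjusted p = 0.455 and 0.232). SLC6A16, an orphan member, had 101, 175 and 108 in RIP, against 106, 146 and 89.5 in input. SLC6A12, the betaine and GABA transporter, and SLC6A20, the carrier of proline and other imino acids, averaged below 100 normalized counts, with RIP values of 27.3 to 82.7 for SLC6A12 and 0 to 37.3 for SLC6A20, against input values of 25.1 to 33.7 for SLC6A12 and 23.3 to 48.0 for SLC6A20.

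In family SLC43, 1 of 2 tested genes was lower in RIP, against 21.2% of all genes tested. SLC43A1, the leucine carrier LAT3, had 1050, 814 and 1322 normalized counts in RIP, against 1383, 1596 and 1663 in input. The groups lay apart, and the log2 fold was -0.57 (SE 0.189, adjusted p = 0.0292 by limma). The call was lost without RIP2, Input2 or Input3, with limma adjusted p-values of 0.0932, 0.0976 and 0.0953, in a range of 0.00607 to 0.788 over limma's 12 settings. SLC43A2, the related LAT4, had 545, 838 and 629 in RIP, against 571, 705 and 982 in input, with a log2 fold of -0.15 (SE 0.245, limma adjusted p = 0.645). Its groups overlapped almost fully.

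The other 13 transporters averaged under 10 normalized counts and were not tested. They were SLC1A7, SLC3A1, SLC6A2, SLC6A3, SLC6A4, SLC6A5, SLC6A13, SLC6A19, SLC7A9, SLC7A10, SLC38A5, SLC38A8 and SLC43A3. Several are known from neurons, kidney or gut, among them the noradrenaline, dopamine and serotonin transporters SLC6A2, SLC6A3 and SLC6A4 and the cystine transporter pair SLC3A1 and SLC7A9. SLC7A9 had no read in any of the 6 columns, which allows up to 3 reads in each. The highest value among the 13 was that of SLC38A5, a System N carrier, with 34.3 in Input2 against at most 7.84 in a RIP library.

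In the remaining inputs, transporters known as ATF4 targets and some other transporters were higher than in the input columns. Of the 36 tested transporters, 4 had a derived mean at least 2-fold above that of the input columns, against 6.98% of all genes tested, and 6 had one at least 2-fold below, against 8.22%. The 4 were SLC6A9 with 5307 normalized counts in the remaining inputs against 1680 in the input columns, SLC3A2 with 10565 against 3807, SLC1A4 with 5600 against 2049, and SLC7A1 with 49205 against 21705. All 4 were on a list of 7 transporter genes known as ATF4 targets, whose other members SLC7A5, SLC1A5 and SLC38A2 had log2 folds of 0.80, 0.66 and 0.49. Transporters off this list were higher there too, with log2 folds of 0.91 for SLC7A3, 0.71 for SLC6A11 and 0.70 for SLC38A1. Below every input column were 14 of the 36 tested. The ATF4 list was chosen with earlier results of these data known, so its pattern is a description and no independent support for a role of ATF4. Each of the 7 was above every input column, as were 16 of the 36 tested transporters and 33.8% of all genes tested. Their summed level was 147274 normalized counts in the remaining inputs, against 72764, 77948 and 81045 in the input columns, and 82261, 85297 and 85382 in RIP. The derived mean has no spread, so none of these differences carries a test, and whether they go with doxycycline cannot be read from the column names.

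Among the transporters at least 2-fold lower in the remaining inputs, SLC6A6 had 973 normalized counts against 2530 in the input columns, and SLC6A16 had 49.3 against 114. SLC6A12, SLC6A20 and SLC7A7, also at least 2-fold lower there, averaged under 100. SLC1A1, at 447 against 825, and SLC36A4, at 1113 against 1941, lay below every input column without reaching 2-fold. In all, 14 of the 36 tested transporters lay below every input column, against 30.1% of all genes tested. The 2 kinds of input gave different folds for RIP, which share the RIP libraries and are therefore set side by side only. SLC38A2 had a log2 fold of RIP over the remaining inputs of 0.27, beside 0.77 over the input columns in limma's fit. For SLC36A1 the values were 0.76 and 0.45, for SLC36A4 -0.71 and -1.65, and for SLC1A4 -1.95 and -0.51. SLC7A1 stood at -1.001 against the remaining inputs and at 0.18 against the input columns, and SLC3A2 at -1.33 and 0.13, so the sign for both depended on the inputs used.

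**Figure D3:**
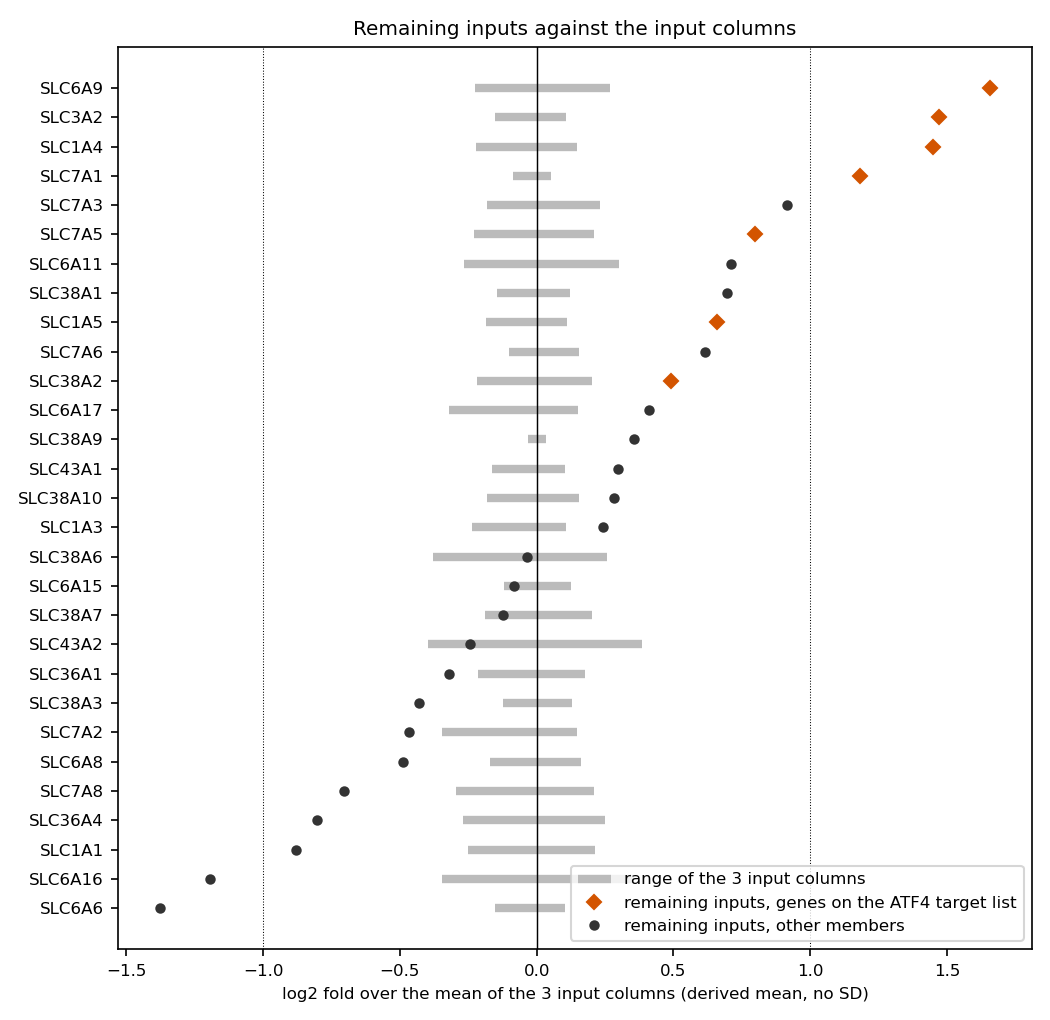
Log2 fold of the derived mean of the 3 remaining inputs over the mean of the 3 input columns (x axis) for the 29 transporters that averaged at least 100 normalized counts. Points are remaining inputs, with diamonds for genes on the ATF4 list, grey bars span the 3 input columns, and dotted lines mark 2-fold. All 7 diamonds lie to the right of their grey bars, and SLC6A9 at 1.66 is the farthest.

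ATF4 binds DNA together with C/EBP proteins at a composite element, so the promoters of the transporters were searched for its core, TGATGNAA, on both strands, from 250 bases before to 50 bases after the start used in RefSeq's promoter table (GRCh38.p14). Of 35116 promoters in the table, 3.62% held the core. A promoter was found for 37 of the 49 transporters, and 6 of these held it, 4 of them on the ATF4 list of 7. The 6 windows are shown because the ATF4 list was higher in the remaining inputs, with the core in capitals, in the direction of the gene.
SLC1A4: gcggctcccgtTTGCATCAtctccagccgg
SLC1A5: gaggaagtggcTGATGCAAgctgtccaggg
SLC3A2: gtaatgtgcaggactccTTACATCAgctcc
SLC7A1: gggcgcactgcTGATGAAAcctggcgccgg
SLC1A3: caggaaatgacTGATGCAAagcagggttaa
SLC38A1: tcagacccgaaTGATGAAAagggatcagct
The windows lie at chr2:64989381-64989410 on the plus strand for SLC1A4, chr19:46784893-46784922 on the minus strand for SLC1A5, chr11:62881719-62881748 on the plus strand for SLC3A2, chr13:29595663-29595692 on the minus strand for SLC7A1, chr5:36596357-36596386 on the plus strand for SLC1A3 and chr12:46266502-46266531 on the minus strand for SLC38A1. In SLC1A4 and SLC3A2 the core reads on the opposite strand. It lies after the start in SLC3A2 and SLC7A1, at bases 38 to 45 and 8 to 15. The start used can lie inside the gene, as in SLC3A2, which begins at 62856109. This also holds for SLC1A5 and SLC38A1, which begin on the minus strand at 46788594 and 46269043. The variant with a C at the open position was held by SLC1A4, SLC1A5 and SLC1A3, of which SLC1A3 is not on the list. SLC38A2, SLC7A5 and SLC6A9 had no match in this window, which says only that these letters are absent from it. A match is a description of the sequence and no measurement of binding. Since the ATF4 list was chosen with earlier results of these data known, matches among its genes are no independent support for a role of ATF4.

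Genes that act with the transporters, taken from lists of related functions, were called in both directions. Of 29 tested genes of amino acid sensing upstream of mTORC1, 12 were higher in RIP and 9 lower, against 22.4% higher and 21.2% lower of all genes tested. FNIP1 and FNIP2, partners of folliculin at the lysosome, had log2 folds of 1.37 and 1.01 (limma adjusted p = 2.16e-05 and 9.80e-05). LAMTOR2, a subunit of the Ragulator scaffold, had -1.67 (limma adjusted p = 0.000227). Among 10 tested genes of the mTOR complexes and their regulators, 3 were higher and 5 lower, with RICTOR of mTORC2 at 0.94 and the repressor subunit TSC1 at 0.47, against TSC2 at -1.12 and the shared subunit MLST8 at -1.18, all called by limma.

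Of 26 tested enzymes of amino acid synthesis and breakdown, 15 were lower in RIP and limma called 0 higher, with 0 higher at an unadjusted p under 0.05 and by edgeR, and 1 higher in the authors' deposited table. Of all genes tested, limma called 21.2% lower and 22.4% higher. Those with the smallest p were the mitochondrial enzymes GOT2, an aspartate aminotransferase, at -1.38 and GLUD1, glutamate dehydrogenase, at -1.36 (limma adjusted p = 2.57e-06 and 3.23e-06). Among 8 tested amino acid transporters outside the 7 families, 2 were lower, the lysosomal cysteine transporter MFSD12 at -0.61 and the aromatic amino acid transporter SLC16A10 at -0.48 (limma adjusted p = 0.0125 and 0.015). Of 4 tested ubiquitin ligases and adaptors that act on plasma membrane transporters, the adaptors NDFIP1 and NDFIP2 were lower at -0.58 and -0.34 (limma adjusted p = 0.00137 and 0.0409). The differences between these lists and the transporters were not tested.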

How the data were processed

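RIP and input RNA of HEK293T cells was analysed from 1 deposited table. The unit of its library columns is a signal: the authors had scaled the counts of each library by its size factor. All values (100%) came out as whole reads within 0.01 of a read. The log2 fold changes and the p-values and adjusted p-values in the authors' deposited table come from DESeq2, per the submitters' processing notes, which also name STAR, featureCounts and GRCh38. No version, annotation release or strand setting is stated there, so reads of overlapping antisense genes cannot be told apart. Columns were matched to samples by name: the RIP columns to their libraries, the input columns only to the input group. The group means gave the authors' log2 fold within 0.00265 for 11785 genes, so the 3 input columns are those the authors compared with RIP.

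Genes averaging at least 10 normalized counts were fitted as log2(value + 1), with pseudocount 1, in limma 3.58.1 with a mean-variance trend (R 4.3.3), without covariates, at a Benjamini-Hochberg threshold of 0.05. At low counts, folds on this scale follow single libraries near 0 and can lie above or below the fold of group means. The quasi-likelihood test of edgeR 4.0.16 on recovered reads was an alternative and called 3714 genes higher and 3435 lower. Chi-square per degree of freedom between replicates was 32.1 to 92.6, so no 2 libraries differed by sampling noise alone. Floors cover counting error only, since reads that carry no molecular identifier can be copies of 1 molecule. The mean of the remaining inputs is 9 times the deposited mean less the 6 columns, divided by 3.

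The transporters, the lists of related genes and the tests were chosen with earlier results of these data known. Transporters are given by level: those averaging at least 100 normalized counts by library, the rest by value, range or name. From each list of related genes, the 2 called genes with the smallest p in each direction are named. A few genes that this rule covers are counted but not reported here.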

Additional observations from a re-analysis of the deposited data

How the results depend on the processing

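All transporter counts moved with the scaling. With equal totals over all genes, which raised the median log2 fold of all genes tested to 0.44, 6154 genes were higher in RIP and 1653 lower, the transporters gave 11 and 1 with a median of 0.29, and the log2 fold of 8 transporters averaging at least 100 turned positive, among them SLC6A8 (0.35), SLC6A15 (0.37) and, of those called, SLC7A6 (0.077). With equal totals over nuclear protein-coding genes, 5 transporters were lower and their median was -0.068. With a mean of at least 100 normalized counts the median was -0.15. A further requirement of a 2-fold change left 1904 genes higher and 1779 lower, and 0 and 2 transporters by limma, where 2 and 11 passed an unadjusted p under 0.05 and edgeR called 2 and 8 with no fold requirement. Leaving out 1 library at a time gave 1 to 2 transporters higher, 4 to 10 lower and a median of -0.31 to -0.15. The replicate block gave 4053 genes higher and 3925 lower and 2 and 10 transporters, with SLC1A5 and SLC7A5 called lower in addition (limma adjusted p = 0.0105 and 0.0291). Libraries of the same number had deviation correlations of 0.255, 0.0025 and 0.24, against -0.265 to 0.026 for libraries of different numbers. RIP and input libraries numbered 1 thus deviated alike, as did those numbered 3, while those numbered 2 did not. Deviations were taken within groups of 3, so the values for numbers 1 and 3 are not independent. Whether the numbers pair the samples was not settled. The cause of these changes was not tested, beyond the tighter rule in the 2-fold count. SLC38A2 and SLC36A4 kept their call in 14 of 14 settings without a fold requirement, edgeR called the same 10 transporters, and no call was lost with a pseudocount of 5 or with no filter on level. Transporters under 100 normalized counts rest on few reads, and RIP2, the library with the most reads in genes, often had 0 for them.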

Other observations

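A few other genes of amino acid metabolism were also higher in the remaining inputs than in the input columns. At least 2-fold higher were 3 of 29 tested sensing genes and 3 of 26 tested enzymes, against 6.98% of all genes tested. At least 2-fold lower were 0 of either list, against 8.22%, though SESN3 and OAT had log2 folds of -0.81 and -0.64. SESN2, a leucine sensor induced by stress, had 16262 normalized counts in the remaining inputs, against 4694, 5206 and 5954 in the input columns, and 6792, 8933 and 8408 in RIP. CTH, the enzyme that makes cysteine from cystathionine, had 7831 in the remaining inputs, against 2340, 2626 and 2520 in the input columns, and 1963, 1720 and 2094 in RIP. GPT2, the mitochondrial alanine aminotransferase, and PSPH, the last enzyme of serine synthesis, had 5903 and 4113 in the remaining inputs, against means of 2758 and 1927 in the input columns. The sensing genes KICS2 and ITFG2 also passed 2-fold, with log2 folds of 1.06 and 1.01. By contrast, the enzymes ASNS and PHGDH stayed below it, at 0.17 and 0.54. These genes were chosen after their values were seen, and the derived mean has no spread, so there is no test.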
